A study of Mus musculus with 4 samples.

Results

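The tubulin isotypes analysed here are 10 genes of the alpha, beta and gamma tubulin families that are expressed in neurons and in dividing cells: Tuba1a, Tuba1b, Tuba1c, Tubb2a, Tubb2b, Tubb3, Tubb4a, Tubb4b, Tubb5 and Tubg1. They were chosen by name from the 24062 genes of the count table, with earlier results of these data known. RNA-seq was performed on 4 libraries of E13.5 mouse retina from a mixed C57BL/6 129 strain, 2 from wildtype embryos and 2 labelled Nrf1-CKO. The latter are called mutant below. They are Nrf1 f/f;Six3-Cre embryos, in which Cre recombinase driven by Six3 regulatory sequence removes 1 floxed exon of Nrf1 in retinal progenitor cells. Nrf1 encodes nuclear respiratory factor 1, a transcription factor known as a regulator of mitochondrial biogenesis. The design text of the series calls the mutant retinas Nrf1-/-, although the deletion is conditional. The comparison of mutant with wildtype asks which transcripts depend on Nrf1 when retinal neurons first differentiate.

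Each library was made from retinas pooled over several littermates. Neither the labels nor the methods say whether the 2 libraries of a genotype came from separate litters, so the p-values measure the spread between these libraries. In bulk RNA, fewer cells of a type and less RNA per cell cannot be told apart.

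Alpha and beta tubulin form the dimers from which microtubules are built, and gamma tubulin starts new microtubules at the centrosome and other sites. Microtubules make up the mitotic spindle of a dividing progenitor and fill the growing axon of a neuron. Retinal ganglion cells (RGCs), the first neurons born in the retina, send long axons to the brain, and antibodies against the Tubb3 protein are widely used to stain them. Isotypes of 1 class are nearly identical over most of their length and differ most in the acidic tail at the end of the protein, where glutamylation, detyrosination and other modifications are placed.

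The last 63 coding bases of 4 beta isotypes, stop codon included, are shown because this stretch encodes that tail, and because the close copies among them bear on how reads could be counted. They were read from the GENCODE M21 transcripts, on the GRCm38 (mm10) genome, as 5′ to 3′ coding sequence. Capitals mark bases that differ from Tubb5 or have no partner in it when the whole coding sequences are aligned.
Tubb5: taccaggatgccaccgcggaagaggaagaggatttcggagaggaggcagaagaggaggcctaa
Tubb3: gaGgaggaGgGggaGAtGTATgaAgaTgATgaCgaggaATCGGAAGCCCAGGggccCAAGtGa
Tubb2a: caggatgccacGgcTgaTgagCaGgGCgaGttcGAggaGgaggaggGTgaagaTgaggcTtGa
Tubb2b: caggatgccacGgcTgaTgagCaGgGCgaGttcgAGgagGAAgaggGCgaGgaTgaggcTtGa

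Of these 63 bases, Tubb3 differed from its partner in Tubb5 at 15 and had no partner at 18. Tubb2a differed at 13 and had no partner at 3, and Tubb2b differed at 16 and had no partner at 3. All 4 stretches lie within the coding part of a single exon. Those of Tubb5 (chr17:35834982-35835044), Tubb2a (chr13:34074468-34074530) and Tubb2b (chr13:34127471-34127533) are on the minus strand, and that of Tubb3 (chr8:123421620-123421682) is on the plus strand. Over the whole coding sequence, Tubb2a and Tubb2b were identical at 96.5% of bases.

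The libraries held between 74577660 and 85933945 reads on genes. HTSeq set aside 54.6% to 58.0% of all entries as not uniquely aligned. Nrf1 itself had 9052 and 7789 counts in wildtype and 8594 and 8284 in mutant retinas (log2 fold change -0.03, adjusted p = 0.794 by edgeR), and since the counts cover the whole gene and not the deleted exon, they do not check the genotype. A gene was called at a fold of at least 1.4 together with an adjusted p of at most 0.2, where p came from the quasi-likelihood test in edgeR over 15762 tested genes. Over all tested genes, 8.04% were called lower and 12.8% higher. Retinal progenitor markers (all 13 tested) summed to 8796 and 9452 CPM (counts per 1e6 reads on genes) in wildtype and 6924 and 7465 in mutant retinas. Most of that difference lay in Ccnd1 (means of 2658 and 1446 CPM) and Fgf15 (1137 and 701 CPM), and the median log2 fold change of the 13 was -0.12. Lens markers, by contrast, summed to 144 and 420 CPM in wildtype and 8573 and 3534 CPM in mutant retinas, with 9 of 9 tested called higher against that 12.8%, and macrophage markers to 75.0–79.6 and 239–289 CPM, also with 9 of 9 called higher. None of the tested lens or macrophage markers was at 0 in every library. Called higher were also 4 of 7 pigment epithelium, 6 of 8 endothelial, 5 of 9 periocular mesenchyme and 2 of 4 erythroid markers. The endothelial marker Kdr was called lower (-0.55), and the endothelial markers summed to 269.8–273 CPM in wildtype and 282–289.9 CPM in mutant retinas. The pigment epithelium marker Best1, not called, was at -1.01. The ribosomal precursor Rn45s took 1.36% and 2.02% of the reads on genes in wildtype and 4.04% and 3.82% in mutant libraries. The part of these cells and of Rn45s in the tubulin values was not tested as such. With scaling factors computed without the markers of these tissues, and in a fit without Rn45s, 6 isotypes were called lower.

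All 10 isotypes passed the filter on low counts. In the mutant retinas 6 of the 10 were called lower, against 8.04% of all tested genes, and 0 of 10 higher, against 12.8%. Whatever the fold, 8 of 10 were lower at an adjusted p of at most 0.2, against 19.5% of all tested genes. At an unadjusted p under 0.05, 8 isotypes were lower and 0 higher, against 16.9% and 17.9% of all tested genes. DESeq2 called 6 lower and 0 higher (7.61% and 12.1% of all), as did edgeR's exact test (8.33% and 13.6% of all). Tuba1b and Tubb4a were not among the 4 called lower with limma on the authors' log2 values (3.88% of all lower, 5.05% higher) or with glmTreat, which tests against the fold threshold itself (4.71% and 7.54%). For 8 of the 10, both mutant libraries lay below both wildtype libraries, which held for 31.6% of all tested genes, and for 0 of the 10 both lay above (30.9% of all). Over the 10 isotypes the log2 fold change had a median of -0.52, against 0.00073 over all tested genes. The reads of the 10 genes together made up 0.948% and 0.997% of the reads on genes in wildtype and 0.628% and 0.616% in mutant retinas.

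**Figure D1:**
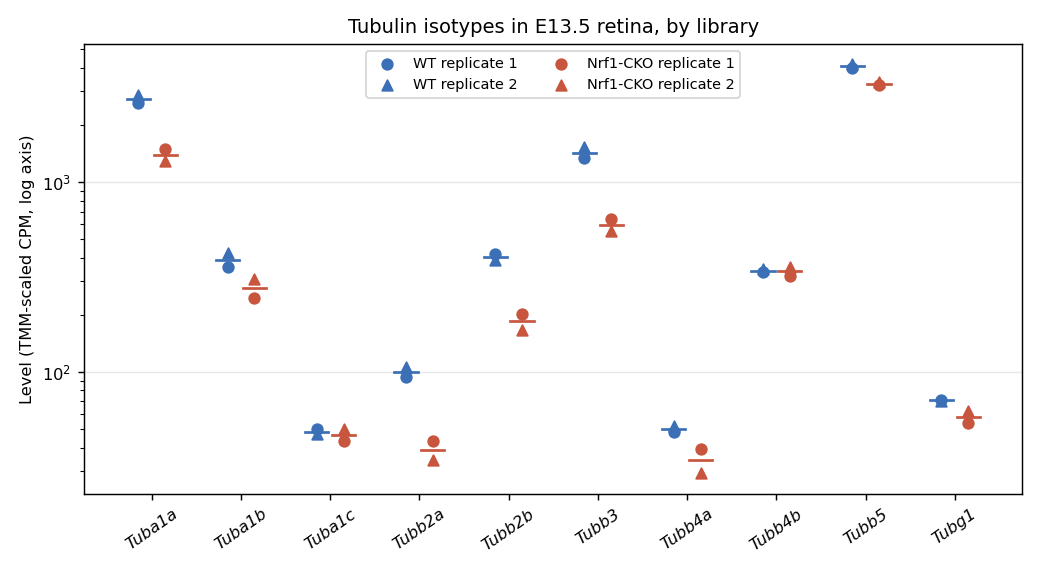
Level of each tubulin isotype in each library, in CPM scaled with TMM factors on a log axis. Circles are replicate 1, triangles replicate 2 and short lines the mean of the 2 libraries of a genotype. The wildtype and mutant symbols are separated for 8 isotypes and overlap for Tuba1c and Tubb4b.

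Tubb2a, Tubb3 and Tubb2b had the lowest mutant levels relative to wildtype of the 10 isotypes. Tubb3, the neuronal class III beta tubulin, had 1331 and 1531 CPM in wildtype replicates 1 and 2 and 642 and 552 CPM in mutant replicates 1 and 2. Both mutant libraries were below both wildtype libraries. The mean fell from 1431 ± 141 to 597 ± 63.3 CPM (SD, n = 2, as for all values given with ±), which is 41.7% of wildtype. On the log2 scale this is -1.26 with a standard error of 0.10 (95% interval -1.50 to -1.02, adjusted p = 0.00013). Tubb3 shared no exact 100-base stretch with another annotated gene. Near matches and copies outside the annotation were not searched.

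Tubb2a and Tubb2b are neighbours on chromosome 13 and are among the main beta tubulins of brain. Tubb2a had 94.8 and 106 CPM in wildtype and 43.5 and 34.4 CPM in mutant retinas. Tubb2b had 417 and 389 CPM in wildtype and 203 and 166 CPM in mutant retinas. Neither gene's groups overlapped. Tubb2a fell to 38.8% of wildtype (log2 fold change -1.36, standard error 0.12, adjusted p = 0.000153) and Tubb2b to 45.9% (log2 fold change -1.12, standard error 0.11, adjusted p = 0.000216). Because 36.9% of the 100-base windows of Tubb2a and 27.7% of those of Tubb2b also occur in another annotated gene, mostly in each other, the split of their reads is uncertain. Their sum with the transcribed copy Tubb2a-ps2, which was named after its values were seen, does not depend on that split among the 3. It went from 577 ± 18.2 to 259 ± 38.0 CPM, 44.9% of wildtype.

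Tuba1a, the main alpha tubulin of newly formed neurons, had 2598 and 2890 CPM in wildtype and 1495 and 1291 CPM in mutant retinas. The mutant libraries lay well below the wildtype libraries. Its mean fell from 2744 ± 207 to 1393 ± 144 CPM, 50.8% of wildtype, and fell by 0.98 on the log2 scale (standard error 0.10, 95% interval -1.20 to -0.76, adjusted p = 0.000256).

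Tuba1b and Tuba1c are alpha isotypes of broad expression that lie beside Tuba1a on chromosome 15. Tuba1b had 359 and 422 CPM in wildtype and 247 and 307 CPM in mutant retinas, and the groups did not overlap. It was called lower at 70.9% of wildtype (log2 fold change -0.50, standard error 0.12, adjusted p = 0.0181), close to the fold threshold. The call was lost without wildtype replicate 2 (-0.37) or without mutant replicate 1 (-0.35). Tuba1c had 49.9 and 47.3 CPM in wildtype and 43.2 and 50.4 CPM in mutant retinas. These groups overlapped, and the log2 fold change was -0.05 with a 95% interval of -0.27 to 0.16 (adjusted p = 0.735).

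The 3 alpha genes are the least separable of the isotypes. Of their 100-base windows, 65.8% (Tuba1a), 73.0% (Tuba1b) and 53.4% (Tuba1c) also occur in another annotated gene, processed copies included. Reads from such windows may not have been counted, or may have been counted on a copy. The sum of the 3 genes, which does not depend on how reads were split between them, went from 3183 ± 249 to 1717 ± 96.4 CPM, or 53.9% of wildtype. In single libraries the sum was 3007 and 3360 CPM in wildtype and 1785 and 1648 CPM in mutant retinas, with no overlap.

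**Figure D2:**
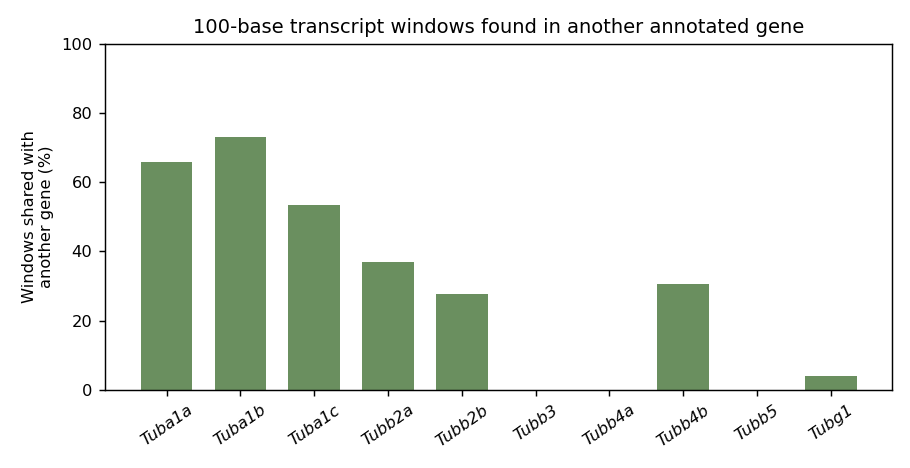
Share of each isotype's 100-base transcript windows, in percent, that also occur in a transcript of another annotated gene. The 3 alpha genes stand at 53.4% to 73.0%, whereas Tubb3, Tubb4a and Tubb5 are at 0.

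Tubb5, the beta tubulin most abundant in dividing cells and many other tissues, was only slightly lower. It had 4000 and 4164 CPM in wildtype and 3228 and 3359 CPM in mutant retinas, so the groups did not overlap. The mean was 80.7% of wildtype (4082 ± 116 and 3294 ± 92.4 CPM). Its log2 fold change of -0.31 (standard error 0.07, 95% interval -0.48 to -0.14, adjusted p = 0.0156) was under the fold threshold, and the gene was not called. The intervals of Tubb5 and Tubb3 did not overlap. Within libraries, the ratio of Tubb3 to Tubb5 counts was 0.333 and 0.368 in wildtype and 0.199 and 0.164 in mutant retinas. An exact two-sided permutation test of 2 against 2 libraries cannot give a p below 0.333, and no other test of this ratio was run.

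Tubb4b, a widely expressed beta tubulin that is also prominent in cilia, had 335 and 350 CPM in wildtype and 322 and 358 CPM in mutant retinas. Its groups overlapped, and the log2 fold change was -0.01 with a 95% interval of -0.20 to 0.18 (adjusted p = 0.949). A difference of the size seen for Tubb3 lies outside this interval. For Tubb4b, 30.6% of windows occur in other annotated genes, most of them in the pseudogene Tubb4b-ps1.

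Tubb4a is a beta tubulin of the mature brain and one of the least abundant isotypes here. It had 48.5 and 52.0 CPM in wildtype and 39.4 and 29.3 CPM in mutant retinas, without overlap. It was called lower at 68.4% of wildtype (log2 fold change -0.55, standard error 0.13, adjusted p = 0.0166). Mutant replicate 2 was the lowest library, and without it the log2 fold change was -0.35 and the call was lost.

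Tubg1, the gamma tubulin of the centrosome, had 71.4 and 70.6 CPM in wildtype and 53.6 and 62.3 CPM in mutant retinas. The groups did not overlap, yet the difference was of the same order as that of Tubb5, with a log2 fold change of -0.29 (95% interval -0.50 to -0.09, adjusted p = 0.0455). It was under the fold threshold, and the gene was not called.

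**Figure D3:**
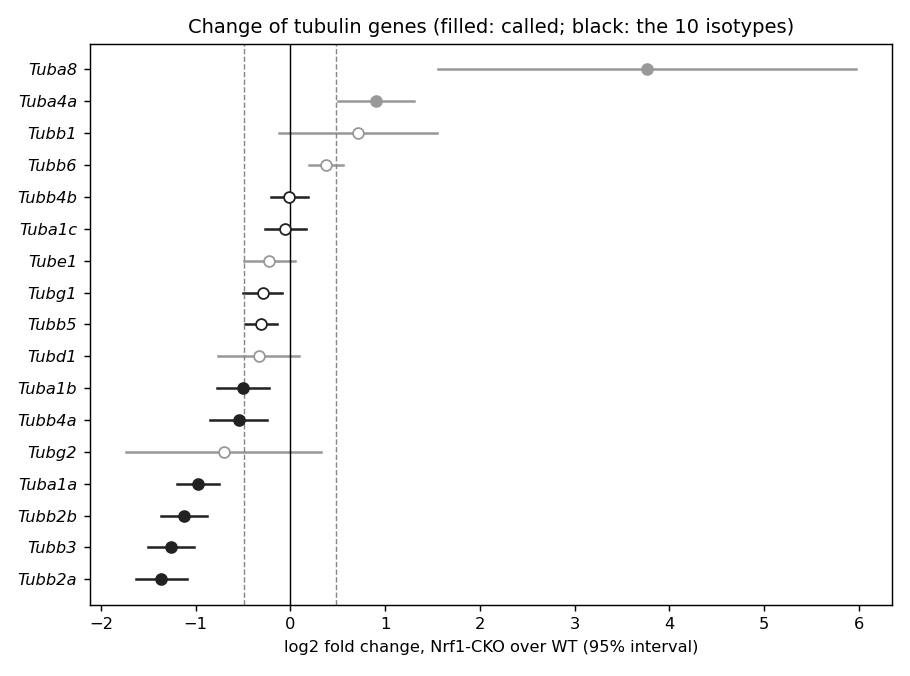
log2 fold change of mutant over wildtype for the 10 isotypes (black) and 7 other tested tubulin genes (grey), with 95% intervals from edgeR. Filled points were called, and dashed lines mark a fold of 1.4. Tubb2a, Tubb3, Tubb2b and Tuba1a lie lowest, from -1.36 to -0.98, and Tuba1c and Tubb4b lie near 0. The fitted value of Tuba8 rests on 2 counts per wildtype library and is no bound.

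Levels of different isotypes were compared as CPM per kilobase of annotated exon. In wildtype retinas Tuba1a was highest at 1522 ± 115 per kb, followed by Tubb5 at 1227 ± 34.9 and Tubb3 at 766 ± 75.5. Next came Tuba1b at 208 ± 23.8, Tubb2b at 176 ± 8.69, Tubb4b at 164 ± 4.99 and Tubb2a at 62.3 ± 4.84 per kb. Tubg1 was at 31.3 ± 0.255, Tubb4a at 22.6 ± 1.12 and Tuba1c at 21.2 ± 0.813 per kb. Of neighbours in this order, Tubb4a and Tuba1c overlapped between libraries, and the others did not, although Tubb2b and Tubb4b were close.

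In mutant retinas the order began with Tubb5 at 990 ± 27.8 per kb, ahead of Tuba1a at 772 ± 80.0 and Tubb3 at 320 ± 33.9. Tubb4b (163 ± 12.5 per kb) came before Tuba1b (148 ± 22.9), with overlapping libraries, and Tubb2b was at 80.6 ± 11.3. Tubg1 at 25.6 ± 2.69 and Tubb2a at 24.2 ± 4.02 per kb overlapped, as did Tubb2a and Tuba1c (20.5 ± 2.22), and Tubb4a was lowest at 15.4 ± 3.21. On this scale Tuba1a led in both wildtype libraries and Tubb5 in both mutant libraries, but the order turns with the length used. Per kilobase of windows found in no other gene, Tuba1a led in both genotypes (4714 ± 355 and 2393 ± 248, against 1601 ± 45.6 and 1292 ± 36.2 for Tubb5). In CPM without length, Tubb5 led in both. These levels leave out reads that aligned to several places, so they are low by an unknown amount for the genes with close copies.

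Summed per kilobase over the class, alpha tubulin (5 genes, of which 3 are isotypes named above) went from 1752 ± 138 to 943 ± 55.1, 53.8% of wildtype. Beta tubulin (8 genes) went from 2435 ± 113 to 1616 ± 12.9, 66.3% of wildtype. Neither class overlapped between genotypes. Tuba1a made up 92.5% of the alpha difference. Tubb3 made up 54.5% of the beta difference, Tubb5 28.9% and Tubb2b 11.6%. The ratio of summed alpha to summed beta level, per kilobase of exon, was 0.703 and 0.736 in wildtype and 0.604 and 0.563 in mutant retinas. Whether alpha lies below or above beta turns with the length used. Per kilobase of windows found in no other gene, Tuba1a was at 4714 ± 355 in wildtype and 2393 ± 248 in mutant retinas. On that scale the highest beta isotypes were Tubb5 (1601 ± 45.6 and 1292 ± 36.2) and Tubb3 (809 ± 79.7 and 337 ± 35.8).

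The make-up of the beta class differed between the genotypes. Tubb3 was 30.3% and 32.6% of the summed beta level in wildtype and 21.1% and 18.4% in mutant retinas. Tubb5 was 51.0% and 49.8% in wildtype and 59.7% and 62.8% in mutant retinas. The share of Tubb4b was 6.74 ± 0.107% and 10.1 ± 0.856%, and those of Tubb2b were 7.23 ± 0.692% and 4.99 ± 0.662%. All 4 shares were separated between genotypes. The share of Tubb4a overlapped, at 0.926 ± 0.00295% and 0.954 ± 0.191%. In the alpha class Tuba1a remained the main isotype, at 86.8 ± 0.276% in wildtype and 81.8 ± 3.71% in mutant retinas, with Tuba1b at 11.9 ± 0.424% and 15.8 ± 3.35%. The size of these differences rested on the mutant libraries. That of Tuba1a, -5.01 percentage points, was -7.63 without mutant replicate 1 and -2.39 without mutant replicate 2, and that of Tuba1b, 3.90 points, was 6.27 and 1.53. A share can be larger where the level is not, as for Tubb5 and Tuba1b, whose levels were lower.

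**Figure D4:**
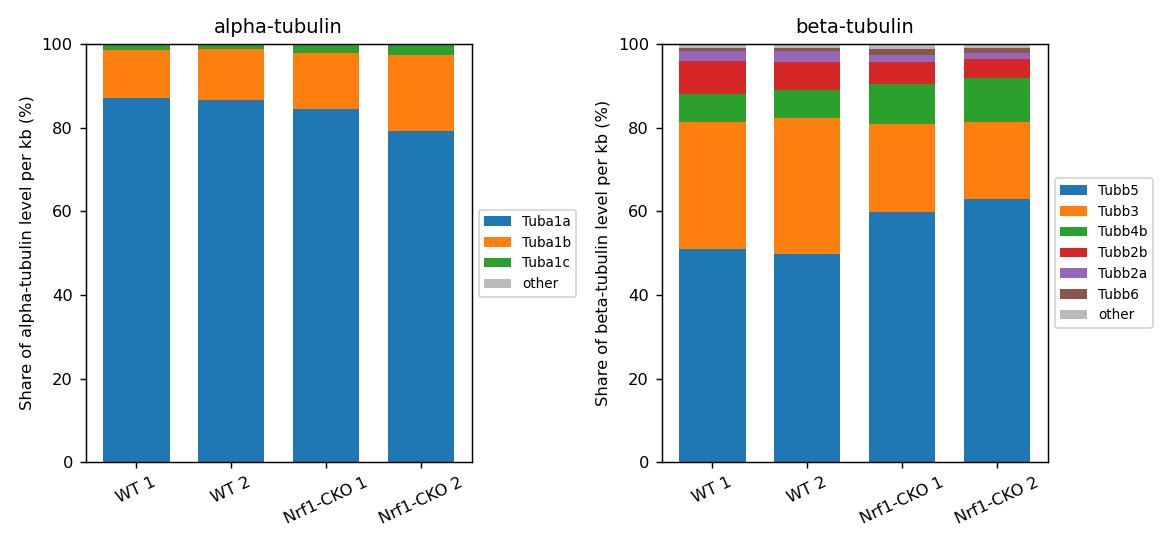
Make-up of the alpha (left) and beta (right) tubulin level per kilobase of exon in each library, in percent of the class. Isotypes under 1% in both genotypes are grouped as other. The Tubb3 section spans 30.3% and 32.6% in wildtype but 21.1% and 18.4% in mutant retinas, and the Tubb5 section reaches 59.7% and 62.8% in the latter.

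Of 10 other tubulin genes listed, 7 were tested, 0 were called lower (8.04% of all tested genes) and 2 higher (12.8% of all). Both mutant libraries lay below both wildtype libraries for 3 of the 7 and above them for 4, and over all tested genes this held for 31.6% and 30.9%. At an unadjusted p under 0.05 there were 0 lower and 3 higher (16.9% and 17.9% of all). DESeq2 called 0 lower and 2 higher, edgeR's exact test 0 and 3, and limma on the authors' log2 values 0 and 0. Tuba4a, an alpha tubulin of mature tissues that lacks the usual terminal tyrosine codon, had 302 and 242 counts in wildtype and 529 and 512 in mutant retinas. It rose by 0.90 on the log2 scale (standard error 0.18, adjusted p = 0.0065). Its exons overlap those of Stk16 on the opposite strand by 1379 bases, the counting is not stated to use strand, and Stk16 itself was at a log2 fold change of 0.04, so reads of the overlap cannot be told apart.

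Tuba8, a rare alpha tubulin, had 2 counts in each wildtype library and 42 and 17 counts in mutant retinas. Its exons overlap those of Gm15856 on the opposite strand by 368 bases, and 12.5% of its 100-base windows occur in that gene. Reads of this overlap cannot be told apart either. Set against a floor of 3 counts per wildtype library, the mutant mean was 9.52-fold higher, which is a ratio and not a lower bound. The 95% interval of the fitted log2 fold change of Tuba8 ran from 1.56 to 5.97. Without mutant replicate 1 the ratio to the floor was 5.50-fold, and the gene was not called (fitted log2 fold change 2.98 against 3.76). Mutant replicate 1 was also the library with the most lens marker RNA (8573 against 3534 CPM), and the part of that in Tuba8 was not tested.

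Tubb6, a beta tubulin of non-neuronal cells, had 40.4 and 41.4 CPM in wildtype and 54.8 and 51.5 CPM in mutant retinas. Its groups did not overlap, but the log2 fold change of 0.38 (adjusted p = 0.0087) was under the fold threshold. Tubb1, the beta tubulin of platelets, was at 0.71 (adjusted p = 0.206), Tubd1 at -0.33 (0.25), Tube1 at -0.22 (0.222) and Tubg2 at -0.71 (0.311), none of them called by edgeR's quasi-likelihood test. Tubb1 was called higher by edgeR's exact test (adjusted p = 0.182), with upper quartile factors (0.184) and with at least 10 counts in every library (0.175), a filter that Tuba8 did not pass. Tubg2 was at -1.26 and called lower without mutant replicate 1, and at -0.31 and not called without mutant replicate 2. Tuba3a, Tuba3b and Tubal3 had at most 4 counts in any library and were not tested.

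The lists of the machinery around tubulin are to be read against the 8.04% of all tested genes called lower and the 12.8% called higher. In the gamma-tubulin ring complex, the template from which microtubules grow, 0 of 10 genes were called in either direction by edgeR's quasi-likelihood test, by DESeq2, by edgeR's exact test or by limma, while 3 were lower at an unadjusted p under 0.05 (16.9% of all tested genes). The median log2 fold change was -0.09. Cdk5rap2, which anchors the complex at centrosomes, was at 165 ± 2.75 CPM in wildtype and 175 ± 0.321 CPM in mutant retinas (log2 fold change 0.08), and Tubgcp2, a core subunit, was at 132 ± 2.89 and 119 ± 5.10 CPM (-0.15).

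Among the tubulin folding genes, which comprise the CCT chaperonin, prefoldin and the tubulin cofactors, 1 of 21 was called lower and 0 higher, with a median of -0.08. The called gene was Tbca, a cofactor that holds beta tubulin before it forms a dimer, at 33.7 and 28.6 CPM in wildtype and 20.7 and 21.8 CPM in mutant retinas. It fell to 68.2% of wildtype (log2 fold change -0.55, standard error 0.11, adjusted p = 0.00686). Without wildtype replicate 1 it was at -0.42 and no longer called. The CCT subunits Tcp1 and Cct5 were at -0.06 and -0.09.

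Of the tubulin modification enzymes, 3 of 23 tested were called lower and 0 higher, with a median of -0.11, a count to be read against the 8.04% and 12.8% of all tested genes. At an unadjusted p under 0.05, 7 were lower and 0 higher, against 16.9% and 17.9% of all tested genes. Both called ligases add glutamates to tubulin tails. Ttll7, a polyglutamylase of beta tubulin in neurons, had 29.7 and 30.1 CPM in wildtype and 16.2 and 13.4 CPM in mutant retinas (log2 fold change -1.02, standard error 0.12, adjusted p = 0.000468). Ttll1, the catalytic subunit of a polyglutamylase complex, had 30.3 and 33.4 CPM in wildtype and 16.7 and 15.2 CPM in mutant retinas (-0.99, standard error 0.11, adjusted p = 0.000318). Agtpbp1, a carboxypeptidase that removes glutamates from tubulin tails, fell to 67.4% of wildtype, from 87.8 ± 3.80 to 59.2 ± 1.99 CPM (-0.57, standard error 0.08, adjusted p = 0.00108). The groups did not overlap for any of the 3, with both mutant libraries below, as for 31.6% of all tested genes. With glmTreat, 2 of the 3 were called, and Agtpbp1 was not (adjusted p = 0.354).

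Markers of RGCs, of progenitors and of mitosis were set beside the isotypes. Photoreceptor precursor markers were also listed. Of these, 2 of 6 were called lower and 0 higher (8.04% and 12.8% of all tested genes), with a median log2 fold change of -0.25. They summed to 357 and 364 CPM in wildtype and 312 and 316 CPM in mutant retinas. Of 16 RGC markers, 14 were called lower and 1 higher, against 8.04% and 12.8% of all tested genes. The median of their log2 fold changes was -1.62, and their summed level was 2220 and 2507 CPM in wildtype and 903 and 694 CPM in mutant retinas. Nefl, a neurofilament subunit, was at -1.95, Stmn2, a tubulin-binding protein of growing axons, at -1.77, and Elavl4, a neuronal RNA-binding protein, at -1.48. The exception was Thy1, a surface protein that is not limited to neurons, which was higher at 3.98. With limma on the authors' log2 values, 14 RGC markers were called lower and 0 higher (3.88% and 5.05% of all), so Thy1 was not called there.

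Of 13 progenitor markers, 3 were called lower and 0 higher (8.04% and 12.8% of all tested genes), with a median of -0.12. Ccnd1, the cyclin that drives progenitors into S phase, fell from 2658 ± 165 to 1446 ± 79.2 CPM (log2 fold change -0.88, adjusted p = 0.000229) and Fgf15, a growth factor of progenitors, from 1137 ± 36.1 to 701 ± 9.79 CPM (-0.70, adjusted p = 0.000385). Sfrp2, a secreted Wnt modulator, was at -0.03. Of 14 mitotic markers, 0 were called in either direction by edgeR or DESeq2, with 0 lower and 1 higher at an unadjusted p under 0.05, and the median was -0.04. The proliferation markers Mki67, Top2a and Tpx2 were at -0.10, -0.08 and 0.01. The log2 fold changes of 8 isotypes, all but Tubb4b and Tuba1c, lay between the medians of the RGC and the progenitor markers. The part of cell number in these values was not tested.

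**Figure D5:**
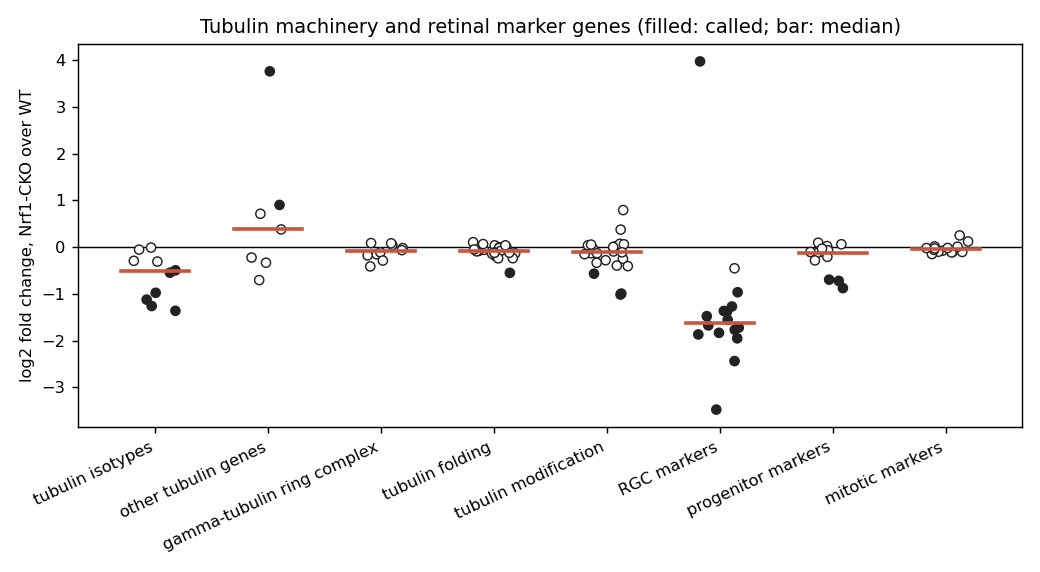
log2 fold change of mutant over wildtype for each tested gene of 8 lists. Each point is a gene, filled where called, and red bars are medians. The RGC marker bar lies at -1.62 and that of the isotypes at -0.52, while the bars of the ring complex, folding, modification, progenitor and mitotic lists lie between -0.12 and -0.04.

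The genes whose pattern over the 4 libraries was most like that of Tubb3 were Mllt11, Celf3 and Elavl3. Likeness was the Euclidean distance of log2 CPM after centring each gene on its mean, among 4830 genes with a mean of at least 50 CPM, and the distances were 0.053, 0.056 and 0.056. Mllt11 had 88.9 and 100.3 CPM in wildtype and 43.0 and 35.3 CPM in mutant retinas, 41.4% of wildtype. Elavl3 (41.4%) and Celf3 (42.7%) encode RNA-binding proteins known from neurons, and Elavl3 is 1 of the RGC markers. The nearest genes to Tubb5 were Madd, Aco1 and Mapk7, at distances of 0.012, 0.015 and 0.022 and at 81.2%, 81.4% and 81.4% of wildtype. None of these 3 was called. As likeness was measured over the same 4 libraries, the similar percentages of wildtype follow from how the genes were chosen.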

How the data were processed

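Total RNA of pooled E13.5 retinas was sequenced. Per the labels and the methods, the authors used TopHat2 for alignment to mm10 and HTSeq for counting reads in genes. The deposited counts are whole numbers and were not normalized. The labels also list DESeq and limma among the tools, without their roles. The authors also deposited log2 values with a lowest value of 8.13 in every library, whose normalization is not given in the sources used here. These log2 values served only as an alternative. The header lines of both tables hold empty cells, and columns were assigned by the order of the names in the header, in which Ctrl is wildtype and Mut is Nrf1-CKO. The 5 HTSeq summary rows (74.0% to 75.0% of entries) were left out.

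Counts were filtered with filterByExpr (minimum count 10), scaled with TMM factors and tested by quasi-likelihood in edgeR 4.0.16 (R 4.3.3), with Benjamini-Hochberg adjustment over 15762 genes and no covariate. The thresholds of 1.4-fold and adjusted p of at most 0.2 are those of the methods, which name Cuffdiff, a tool for aligned reads. The script was tested on simulated data. CPM uses the TMM factors. Exon lengths, 100-base windows and coding sequences came from GENCODE M21, in which 22724 of 24062 symbols matched. Coding sequence of the alpha isotypes is not reported here. Standard errors and intervals cover the spread of 2 libraries per genotype and counting error, and PCR copies are not independent molecules. Within genotypes, replicates differed by more than counting error (mean chi-square per gene 45.8 in wildtype and 56.8 in mutant).

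The isotypes and the lists were chosen with earlier results of these data known. Named were all isotypes, all tested tubulin genes, from the machinery lists the called genes or, with fewer than 2 called, also the 2 most abundant, the 3 most abundant RGC, progenitor and mitotic markers, and the 3 nearest genes to Tubb3 and Tubb5. Thy1, Kdr, Best1, Tubb2a-ps2, Stk16 and Rn45s were added after their values were seen. The symbols Pfdn6 and Svbp are H2-Ke2 and Ccdc23 in the count table. Alternatives were other scalings, filters, tests, lengths, a replicate block and leaving out each library, with DESeq2 1.42.0 and limma 3.58.1.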

Additional observations from a re-analysis of the deposited data

How the results depend on the processing

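Over 17 alternatives, Tuba1a, Tubb2a, Tubb2b and Tubb3 were called lower in all, with log2 fold changes of -1.09 to -0.88, -1.54 to -1.21, -1.27 to -0.99 and -1.37 to -1.15, and Tubb5 and Tubg1 were called in none (-0.34 to -0.27 and -0.41 to -0.19). Tuba1b was called in 12 and Tubb4a in 14. Tuba1b was lost with upper quartile factors (-0.46), with limma on the authors' log2 values (-0.49) and with glmTreat, a test against the 1.4-fold threshold itself (-0.50, adjusted p = 0.993), and ranged from -0.66 to -0.35 when 1 library was left out. Tubb4a was lost with limma (-0.48) and glmTreat (-0.55, adjusted p = 0.705), and ranged from -0.78 to -0.35. The uncalled Tubb4b and Tuba1c changed sign. Tubb4b was at 0.029 with upper quartile factors and from -0.093 to 0.067 when 1 library was left out, and Tuba1c from -0.171 to 0.054. Adjusted p over the alternatives ran from 0.0002 to 0.993 for Tuba1b and from 1.42e-05 to 0.705 for Tubb4a. With limma and with glmTreat 4 isotypes were called lower, and 5 to 6 when 1 library was left out. Of the other tubulin genes, 0 were called higher with limma, 3 with upper quartile factors and with edgeR's exact test, and 0 to 1 were called lower and 1 to 2 higher when 1 library was left out. Of the folding genes, 0 were called lower with glmTreat and limma and 0 to 1 when 1 library was left out. With at least 10 counts in every library, 1 modification gene was called higher, and with glmTreat 2 were called lower.

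The summed beta level, -0.59 on the log2 scale of mutant over wildtype, was -0.51 without length scaling and -0.54 with lengths counted in unshared windows, an alternative chosen after seeing the data, and ranged from -0.64 to -0.54 when 1 library was left out. Without length scaling and with unshared windows, in percentage points of mutant minus wildtype, the share in beta tubulin differed by -0.70 and -1.44 for Tubb2a, by 2.17 and 4.65 for Tubb4b and by -0.022 and -0.0022 for Tubb4a, whose range with 1 library left out was -0.107 to 0.163. That of Tubb3 was -9.02 without length scaling, and that of Tubb5 8.89 with unshared windows. Deviations of the replicate 1 libraries from their group means had a correlation of -0.0025 between genotypes, over the tested genes. This cannot show whether libraries of the same number were made as pairs. With a replicate block 6 isotypes were called lower, 0 higher, and 1256 of all genes lower and 1970 higher. Over all genes, glmTreat called 743 lower and 1188 higher and limma 722 and 941, against 1268 and 2024. Where not stated, the cause of a change was not tested. With 2 libraries per genotype, the 95% intervals of Tuba1b, Tubb4a and Tubg1 include the 1.4-fold threshold. The low counts of Tuba8 and Tubg2 limit their values.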

Other observations

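The promoters of the isotypes were searched on both strands for GCGCA, any base, then GCGC, the core of the site that NRF1 is known to bind. In the RefSeq table of GRCm38.p6 promoters, which run from 250 bases before to 50 after each start, 8 of the 10 isotypes had an entry and 0 of these held the letters, against 4.60% of 32851 promoters. Among the other tubulin genes, Tubg2 held them. The 30 bases around the match (chr11:101155835-101155864, plus strand), with the matching letters in capitals, are shown because Tubg2 lies beside Tubg1, which had no entry.
Tubg2: atgttaccgtGCGCAAGCGCacatagtgac
The absence of these letters says only that they are not in this window.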
